A study of Homo sapiens with 2 samples.

Results

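The genes described here are the cytokine, chemokine, TNF family, interferon, complement, CD antigen and HLA genes of a table that compares 2 cultures of human embryonic stem cells. They were taken by symbol (symbols that start with CXCL, CXCR, CCL, CCR, XCL, CX3C, IL, TNFRSF, TNFSF, TNFAIP, IRF, IFI, ISG, MX, OAS, HLA, CD, CSF, TLR, NLRP, C1Q and the like, SOCS or STAT), and 55 of the 2005 genes in the table are members. The symbols were set with earlier results of these data known, and 1 gene of the pattern is left out. The cells were HES2, a standard human embryonic stem cell line. A lentivirus brought in either a scrambled sequence (the scramble group) or a short hairpin RNA against TFCP2L1 (the Tfcp2l1 shRNA or knockdown group), a transcription factor best known for keeping mouse embryonic stem cells pluripotent. The medium of both groups, over 3 passages, held 10% KSR together with Activin A and FGF2, each at 10 ng/ml, so the controls too were infected and received both factors. Each group had 1 library, no value here has a replicate check, and no p-value for a difference between the conditions was computed.

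The listed genes had false discovery rates of at most 0.000990 and log2 ratios of at least 1 in size. Such edges were read as limits set by the authors, although the limits themselves are not stated. A gene with no row cannot be described. Levels are in FPKM (fragments scaled by gene length and by library size). Depth was inferred as about 23460000 reads for the scramble library and 22680000 for the knockdown library. Read counts per gene were inferred too, and each read ratio (knockdown over scramble, scaled by depth) carries an exact (Clopper-Pearson) 95% interval that covers counting error only. TFCP2L1 itself was at 3.19 FPKM in the scramble cells and 0.33 FPKM after knockdown, which is 9.70-fold lower (interval 7.56 to 12.6). Of 9 pluripotency markers, 4 had a row (SOX2, PRDM14, PODXL and UTF1), all lower, with a summed level of 533 FPKM in the scramble and 198 FPKM in the knockdown library. Most of these sums came from PODXL (222 and 79.1 FPKM) and SOX2 (180 and 86.1 FPKM). The other markers, POU5F1, NANOG, LIN28A, DPPA4 and TDGF1, had no row and cannot be described. In bulk RNA such as this, fewer cells of a type and less RNA per cell cannot be told apart.

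Cytokines are secreted signals that bind receptors on the cell surface. Chemokines act through G protein-coupled receptors that guide cell migration, most interleukin receptors act through JAK kinases and STAT factors, and TNF family receptors act through adaptor proteins that lead to NF-kB or to cell death. HLA class II molecules present peptides to T cells and are normally made by antigen-presenting cells, under the coactivator CIITA and factors that bind conserved boxes in their promoters. In early embryos CXCR4 is known as a surface marker of definitive endoderm, the layer that forms gut and its organs.

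Promoters of 5 members are shown because they belong to the genes that the results turn on: CXCR4, the HLA class II genes HLA-DMB and HLA-DOA, and IFIT1 and IFITM1, which are interferon-response genes that differed in opposite directions. Each is the stretch of 250 bases before the most upstream start in RefSeq (build GRCh38.p14), and 36 of the 55 members had an entry. HLA-DRA had none and is not shown. The capitals mark the letters TATAAA in CXCR4, CCAAT in the HLA genes and the core of the interferon-stimulated response element (GAAA, any 2 bases and again GAAA) in IFIT1 and IFITM1. All were searched on both strands, so that ATTGG counts as CCAAT. In CXCR4 the matches on the 2 strands overlap.
CXCR4 (chr2:136118150-136118399, minus strand): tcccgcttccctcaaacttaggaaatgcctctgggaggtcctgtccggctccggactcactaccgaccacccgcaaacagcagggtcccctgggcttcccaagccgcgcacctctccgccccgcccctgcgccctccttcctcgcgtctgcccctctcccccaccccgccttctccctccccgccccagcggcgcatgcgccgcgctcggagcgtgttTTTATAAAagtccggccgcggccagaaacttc
HLA-DMB (chr6:32941029-32941278, minus strand): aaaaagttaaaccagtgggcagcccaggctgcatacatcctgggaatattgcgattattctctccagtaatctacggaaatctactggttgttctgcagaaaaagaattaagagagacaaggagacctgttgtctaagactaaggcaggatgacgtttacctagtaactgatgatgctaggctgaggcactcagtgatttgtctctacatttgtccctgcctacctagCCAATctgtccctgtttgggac
HLA-DOA (chr6:33009592-33009841, minus strand): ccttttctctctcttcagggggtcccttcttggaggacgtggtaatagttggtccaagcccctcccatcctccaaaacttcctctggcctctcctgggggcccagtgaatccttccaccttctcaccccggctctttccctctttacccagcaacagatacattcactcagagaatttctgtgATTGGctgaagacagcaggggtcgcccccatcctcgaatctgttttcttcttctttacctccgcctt
IFIT1 (chr10:89392373-89392622, plus strand): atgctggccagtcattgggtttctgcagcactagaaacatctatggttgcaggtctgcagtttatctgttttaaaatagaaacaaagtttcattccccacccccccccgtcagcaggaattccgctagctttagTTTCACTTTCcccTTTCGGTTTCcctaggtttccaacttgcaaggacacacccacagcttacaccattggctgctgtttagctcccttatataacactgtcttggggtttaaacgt
IFITM1 (chr11:313790-314039, plus strand): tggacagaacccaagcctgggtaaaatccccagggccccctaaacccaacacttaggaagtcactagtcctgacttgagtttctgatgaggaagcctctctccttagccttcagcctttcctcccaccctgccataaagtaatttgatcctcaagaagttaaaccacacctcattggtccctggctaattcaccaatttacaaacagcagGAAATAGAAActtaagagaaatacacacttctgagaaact
Of 27305 promoter windows of the same length, 33.0% hold CCAAT, 11.2% hold TATAAA and 3.07% hold the response element core. Among the 36 members the numbers were 14, 2 and 2. Both printed HLA class II promoters hold CCAAT once, with its first printed base 22 bases (HLA-DMB) and 67 bases (HLA-DOA) before the start. Whether these matches belong to the conserved boxes of class II promoters was not tested. The response element core occurs in no member promoter searched other than those of IFIT1 (2 matches) and IFITM1 (1 match). A match describes letters and says nothing about binding in these cells.

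The 55 members split almost evenly by direction, with 26 listed as higher and 29 as lower in the knockdown library. Of all listed genes 54.1% were higher and 45.9% lower. The authors' limits were passed in these directions by 5.86% and 4.98% of the genes they tested. Of the 38 members that reached 1 FPKM in either library, 18 were at least 2-fold higher (51.6% of all 1587 listed genes at that level were) and 19 at least 2-fold lower (44.7% were), by the log2 ratio of levels with 0.1 FPKM added to each. The remaining member, IL11RA, had a log2 ratio of -0.97 on that scale. Past 4-fold, 6 members were higher (15.1% of all listed genes at that level were) and 4 lower (6.74% were). Past 8-fold, 6 members were higher (7.18% of all listed genes at that level were) and 0 lower (0.945% were). The members past 8-fold were CXCR4, XCL2, IL32, TNFRSF19, CD48 and CD177. Of these XCL2 had no scramble reads, so its place there rests on the 0.1 FPKM added. With a counting interval wholly beyond 2-fold, 20 of the 55 were higher (37.7% of all listed genes) and 19 lower (26.7%).

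**Figure D1:**
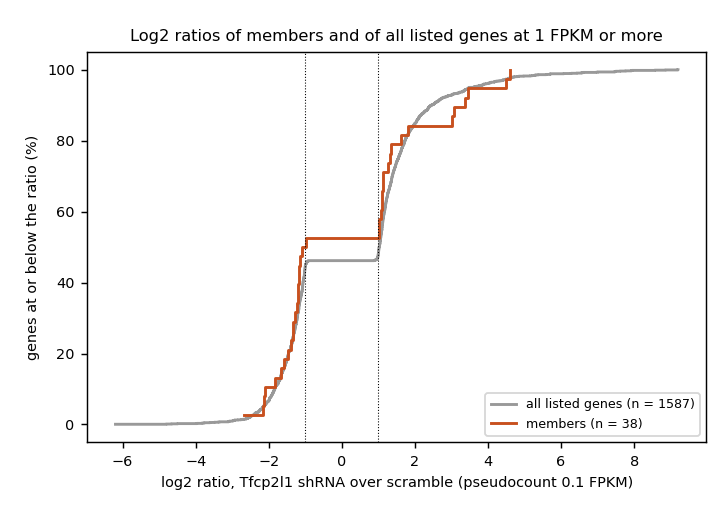
Cumulative share of genes (vertical axis, %) against the log2 ratio of levels, knockdown over scramble with 0.1 FPKM added (horizontal axis), for the 38 members and the 1587 listed genes at 1 FPKM or more. The flat stretch between the dotted lines at -1 and 1 is the range that the authors' limits leave empty, and the members' median of -1.03 lies at its edge.

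Over the 38 members the log2 ratio had a median of -1.03, against 1.02 over all 1587 listed genes at that level. Because almost no listed gene lies between -1 and 1, this median changes side when a few genes move from one direction to the other. It was 1.33 over the 18 higher members (1.47 over the higher listed genes) and -1.34 over the 20 lower members (-1.36 over the lower listed genes). Below 1 FPKM in both libraries were 17 members, 30.9% of them, against 20.8% of all listed genes.

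**Figure D2:**
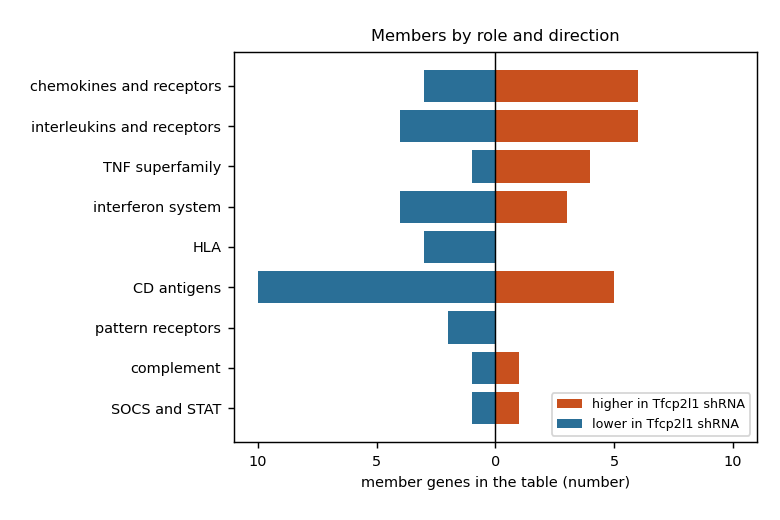
Number of member genes in the table (horizontal axis) that were higher (orange, to the right) or lower (blue, to the left) in the knockdown library, by role (vertical axis). The 3 HLA genes were all lower, and CD antigens had 10 lower and 5 higher.

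By role, 6 of 9 chemokine genes (median log2 ratio 1.31), 6 of 10 interleukin and interleukin receptor genes (1.09) and 4 of 5 TNF superfamily genes (1.82) were higher. Roles follow the start of the symbol. CD40 and CD70, TNF family genes that were both lower, are therefore counted as CD antigens. NGFR (lower) and LTB (higher) of the same family lie outside the symbol rule. Of 7 interferon-system genes 3 were higher and 4 lower (-1.17), and of 15 CD antigens 5 were higher and 10 lower. Over all 2005 listed genes the median was 1.01, with 54.1% higher and 45.9% lower. These shares are the background of every count by role or list, and no role was tested against them. All 3 HLA genes and both NLRP genes were lower. RefSeq names 415 protein-coding genes by the same symbol rule, 62 of them chemokine genes, 85 interleukin genes, 33 TNF superfamily genes, 41 interferon-system genes, 21 HLA genes and 91 CD antigens. The 55 members are 13.3% of these 415 genes, and all listed genes are 8.86% of RefSeq's protein-coding genes. No TNFAIP gene (9 in RefSeq) and no CSF gene (7 in RefSeq) was listed, and at such shares families of this size can be absent from the table without standing apart. Within the chemokine, interleukin and TNF families as named by symbol, 6 of 9 ligands and 10 of 15 receptors were higher, beside 54.1% of all listed genes. CD40 and CD70 are not in these counts.

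**Figure D3:**
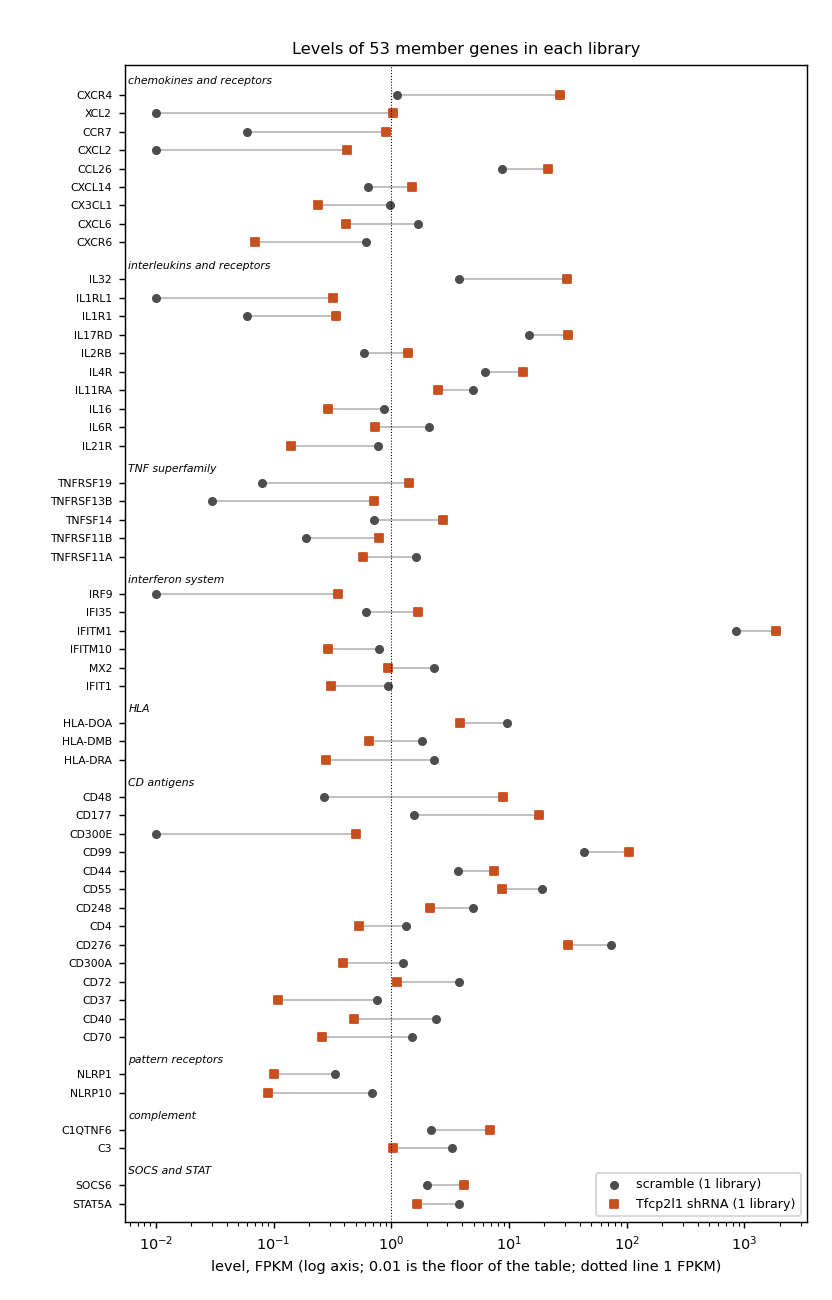
Level of 53 of the 55 members in the scramble library (grey circles) and the knockdown library (orange squares), in FPKM on a log axis, grouped by role. IFITM1 stands far to the right at 850 and 1858 FPKM, and 5 members sit at the floor of 0.01 FPKM in the scramble library.

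CXCR4, the receptor of the chemokine CXCL12, was at 1.13 FPKM in the scramble cells and 27.3 FPKM after knockdown, on 43 and 1010 reads. It was 24.3-fold higher (interval 17.9 to 33.8), and its log2 ratio was 4.48 with 0.1 FPKM added. The other chemokine receptors among the members, CCR7 and CXCR6, stayed below 1 FPKM in both libraries. CCR7, which guides immune cells to lymph nodes, was at 0.06 FPKM in the scramble cells and 0.91 FPKM after knockdown, 15.5-fold higher on 3 scramble reads (interval 4.98 to 78.04). CXCR6, the receptor of CXCL16, was at 0.61 FPKM in the scramble cells and 0.07 FPKM after knockdown, 8.70-fold lower on 3 knockdown reads (interval 2.68 to 44.8). CXCL12, CXCL16 and the CCR7 ligands CCL19 and CCL21 were not among the listed genes, so receptor and ligand could not be set side by side.

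Genes of definitive endoderm other than CXCR4 were higher too. Of 11 markers, CXCR4 included, 10 had a row and all 10 were higher, with a summed level of 9.24 FPKM in the scramble cells and 1124 FPKM after knockdown. CER1 alone, at 6.11 and 799 FPKM, made up most of both sums. SOX17, which specifies endoderm, was at the floor of 0.01 FPKM in the scramble cells and 26.6 FPKM after knockdown. HHEX, a factor of anterior endoderm, was at 0.98 and 15.5 FPKM. Endothelium, which also makes CXCR4, had 3 of 8 markers in the table (VWF higher, TEK and TIE1 lower), with a summed level of 6.64 and 1.97 FPKM. The part of either marker list in the level of CXCR4 was not tested. Of 16 partners of chemokine receptors (atypical receptors, G proteins, arrestins and others), 3 had a row, 2 higher and 1 lower (median log2 ratio 1.62). ACKR3, the other receptor of CXCL12, was at 0.81 and 7.81 FPKM, 9.63-fold higher (interval 6.91 to 13.8). ARRB1, an arrestin that takes part in receptor uptake, was at 12.2 and 37.5 FPKM, 3.08-fold higher (interval 2.93 to 3.24). ACKR4, a scavenger of CCL19 and CCL21, was at 1.10 and 0.27 FPKM, a read ratio of 0.246 (interval 0.130 to 0.438), with 44.4% of its 31-base words also in another gene.

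The chemokine ligands were at low levels, apart from CCL26. CCL26 (eotaxin-3), an eosinophil attractant, was at 8.68 FPKM in the scramble cells and 21.7 FPKM after knockdown, 2.50-fold higher (interval 2.38 to 2.62). The table gives this gene a length of 12298 bases, while the longest CCL26 transcript in GENCODE 29 has 703 bases, so the value belongs to the table's gene model and may hold reads from outside CCL26. CXCL14, an epithelial chemokine, was at 0.64 and 1.51 FPKM, 2.35-fold higher (interval 1.50 to 3.78).

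XCL2 and CXCL2 had no scramble reads and 11 knockdown reads each. XCL2, a lymphotactin, was at 1.04 FPKM after knockdown. CXCL2, which draws neutrophils, was at 0.42 FPKM after knockdown. Against a floor of 3 reads per library each was 3.79-fold higher (the 95% interval starts at 2.60). XCL2 and CXCL2 share 63.6% and 20.4% of their words with another gene, so their reads may have been split between copies. The ligands that were lower were CXCL6 and CX3CL1. CXCL6, which also draws neutrophils, was at 1.70 and 0.41 FPKM, 4.13-fold lower (interval 2.32 to 7.80), and CX3CL1 (fractalkine), a membrane-bound chemokine, at 0.98 and 0.24 FPKM, 4.03-fold lower (interval 2.38 to 7.16).

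**Figure D4:**
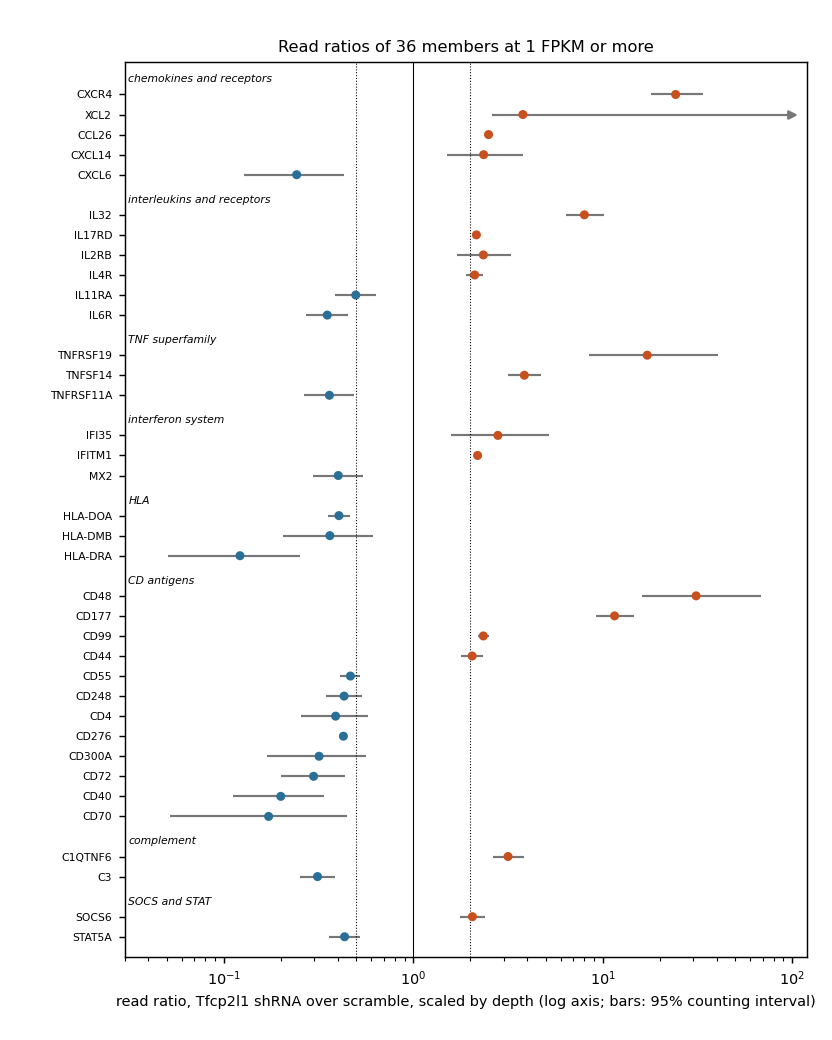
Read ratio of 36 of the 38 members at 1 FPKM or more, knockdown over scramble scaled by depth, on a log axis, with 95% counting intervals as bars and dotted lines at 0.5 and 2. CXCR4, CD48, TNFRSF19, CD177 and IL32 lie furthest to the right, XCL2 has an open upper end because it had no scramble reads, and HLA-DRA and CD70 lie furthest to the left.

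Among interleukin genes that reached 1 FPKM, IL32 had the highest fold. IL32, a pro-inflammatory cytokine with no close relatives, was at 3.75 FPKM in the scramble cells and 30.9 FPKM after knockdown, 8.01-fold higher (interval 6.39 to 10.1). IL16, a ligand of CD4, was at 0.86 and 0.29 FPKM, 2.92-fold lower (interval 2.05 to 4.25). CD4 itself was lower too, at 1.33 and 0.53 FPKM, 2.57-fold lower (interval 1.72 to 3.91).

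The interleukin receptors fell into a higher group of 5 and a lower group of 3. IL17RD (SEF), known as a feedback inhibitor of FGF signalling, was at 14.8 FPKM in the scramble cells and 31.9 FPKM after knockdown, 2.15-fold higher (interval 2.06 to 2.25). IL4R, the receptor chain shared by IL4 and IL13, was at 6.25 and 13.3 FPKM, 2.11-fold higher (interval 1.90 to 2.35). IL2RB, a signalling chain of the IL2 and IL15 receptors, was at 0.59 and 1.38 FPKM, 2.35-fold higher (interval 1.70 to 3.27). Of these, IL17RD had an interval wholly above 2.

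The IL1 family receptors were higher at levels under 1 FPKM. IL1RL1, the receptor of IL33, had no scramble reads and 25 knockdown reads (0.32 FPKM), at least 8.62-fold higher against the floor of 3 reads (the interval starts at 6.50). IL1R1, which binds IL1, was at 0.06 and 0.34 FPKM, 5.76-fold higher (interval 2.55 to 15.3). The lower receptors were IL6R, IL11RA and IL21R. IL6R, which pairs with the shared chain IL6ST, was at 2.09 and 0.73 FPKM, 2.84-fold lower (interval 2.21 to 3.68). IL11RA, which pairs with the same chain, was at 4.96 and 2.48 FPKM, 2.01-fold lower (interval 1.58 to 2.58), and 23.0% of its words occur in another gene. IL21R was at 0.77 and 0.14 FPKM, 5.52-fold lower (interval 3.11 to 10.6). IL6ST was not among the listed genes.

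Of 35 cytokine receptors, cytokines and JAK genes outside the symbol rule, 6 had a row, 5 higher and 1 lower (median log2 ratio 1.30). Among all listed genes 54.1% were higher. CNTFR, the ciliary neurotrophic factor receptor, was at 2.79 and 17.9 FPKM, 6.25-fold higher (interval 5.18 to 7.59), and its ligand gene CLCF1 was at 0.90 and 2.56 FPKM. LIF, the cytokine that maintains mouse embryonic stem cells, was the lower gene, at 5.75 and 2.34 FPKM (read ratio 0.409, interval 0.349 to 0.479). All 3 act through IL6ST together with LIFR, and neither LIFR nor any JAK gene of the list had a row. STAT5A, a transcription factor downstream of JAK kinases, was at 3.80 and 1.65 FPKM, 2.30-fold lower (interval 1.91 to 2.79). SOCS6, a member of the suppressors of cytokine signalling, was at 2.01 and 4.13 FPKM, 2.05-fold higher (interval 1.77 to 2.38). Of 15 SOCS and STAT genes in RefSeq these were the 2 in the table.

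The TNF superfamily genes with a TNFRSF or TNFSF symbol were all below 3 FPKM in both libraries. TNFRSF19 (TROY), an orphan receptor known as a WNT target in stem cells, was at 0.08 FPKM in the scramble cells and 1.41 FPKM after knockdown, 17.2-fold higher on 8 scramble reads (interval 8.48 to 40.7). TNFSF14 (LIGHT), the ligand in the table, was at 0.71 and 2.76 FPKM, 3.86-fold higher (interval 3.17 to 4.73). Its table length of 7652 bases exceeds the longest GENCODE transcript of 4336 bases. TNFRSF13B (TACI), a B cell receptor, was at 0.03 and 0.71 FPKM, 21.7-fold higher on 1 scramble read (interval 3.49 to 898).

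The RANK system differed in opposite directions. TNFRSF11A (RANK), the signalling receptor of osteoclast differentiation, was at 1.62 and 0.58 FPKM, 2.77-fold lower (interval 2.05 to 3.78). TNFRSF11B (osteoprotegerin), the soluble decoy for the same ligand, was at 0.19 and 0.79 FPKM, 4.24-fold higher (interval 2.09 to 9.49). The ligand TNFSF11 was not among the listed genes. TNF family genes that carry CD names were lower. CD40, a receptor of B cells and antigen-presenting cells, was at 2.42 and 0.48 FPKM on 88 and 17 reads, with an interval of 2.96-fold to 8.98-fold lower. CD70, the ligand of CD27, was at 1.51 and 0.26 FPKM, 5.80-fold lower (interval 2.23 to 19.2).

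Of 40 genes of NF-kB and TNF receptor signalling outside the symbol rule, 4 had a row, 3 higher and 1 lower (median log2 ratio 1.25). NFKBIA, the inhibitor of NF-kB that is itself an NF-kB target, was at 8.56 and 20.9 FPKM, 2.44-fold higher (interval 2.15 to 2.77). LTB (lymphotoxin beta) was at 0.67 and 3.56 FPKM, and RIPK1, a kinase at TNF receptors, at 1.56 and 3.80 FPKM. NGFR, a nerve growth factor receptor of the TNF receptor family, was the lower gene, at 8.60 and 2.60 FPKM. No NF-kB subunit of the list had a row.

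The interferon-system genes did not differ in a common direction. IFITM1, a membrane protein that blocks virus entry, had the highest level of all members, at 850 FPKM in the scramble cells and 1858 FPKM after knockdown, 2.19-fold higher (interval 2.14 to 2.23). Of its 31-base words 45.9% occur in another gene, such as IFITM2, so its level is uncertain. IFI35 was at 0.61 and 1.70 FPKM, 2.80-fold higher (interval 1.57 to 5.21). IRF9, the DNA-binding part of the complex that drives interferon-response genes, had no scramble reads and 13 knockdown reads (0.35 FPKM), but 100% of its words occur in another gene and its reads cannot be assigned.

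MX2 and IFIT1 were lower, unlike IFITM1 and IFI35. MX2, an antiviral GTPase, was at 2.31 FPKM in the scramble cells and 0.93 FPKM after knockdown, 2.49-fold lower (interval 1.84 to 3.40). IFIT1, which binds foreign RNA, was at 0.94 and 0.31 FPKM, 3.06-fold lower (interval 2.01 to 4.78). Neither reached 3 FPKM. IFITM10 was at 0.78 and 0.29 FPKM, 2.70-fold lower (interval 1.67 to 4.50), with 27.4% of its words shared. IFIT1 and IFITM1, whose promoters are printed above, both hold the response element core and differed in opposite directions. Of 32 further interferon-response genes and interferons, 2 had a row, EPSTI1 (0.16 and 0.71 FPKM) and ZC3HAV1, an antiviral RNA-binding protein (8.14 and 21.5 FPKM), both higher. No interferon gene of that list had a row.

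The 3 listed genes with an HLA symbol belong to class II and were lower. A locus without a symbol that the authors' deposited table describes as an HLA class I antigen was higher, at 3.79 and 9.98 FPKM. HLA-DRA, the invariant alpha chain of HLA-DR, was at 2.33 FPKM in the scramble cells and 0.28 FPKM after knockdown, on 68 and 8 reads, 8.22-fold lower (interval 3.94 to 19.8). HLA-DMB, a chain of the chaperone that loads peptides, was at 1.81 and 0.65 FPKM on 57 and 20 reads, 2.76-fold lower (interval 1.63 to 4.84). HLA-DOA, a chain of the modulator of that chaperone, was at 9.56 and 3.87 FPKM on 766 and 300 reads, 2.47-fold lower (interval 2.16 to 2.83). The log2 ratios with 0.1 FPKM added were -2.68, -1.35 and -1.28. The interval of HLA-DRA does not overlap that of HLA-DOA, and that of HLA-DMB overlaps both. HLA-DOA had the highest level per length of the 3 in both libraries, and the order of its ratio and that of HLA-DMB is not set by these data.

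RefSeq names 15 HLA class II and 6 HLA class I genes, and 3 class II symbols and none of the class I symbols had a row. With 8.86% of all protein-coding genes listed, the absence of 6 genes does not set class I apart from class II. Of 20 genes of antigen processing and presentation outside the rule, among them CIITA, B2M and the peptide transporter genes TAP1 and TAP2, none had a row either, and neither had CD74, the invariant chain. Of 10 markers of blood cells, some of which make class II molecules, 2 had a row and both were lower. These were AIF1 (17.1 and 2.69 FPKM) and CORO1A (7.51 and 3.06 FPKM). Their summed level was 24.6 FPKM in the scramble and 5.75 FPKM in the knockdown library. Neither was at the floor. The other 8, among them PTPRC (CD45) and SPI1, had no row. Members known from leukocytes did not share a direction: CD48, CD177, CD300E and CCR7 were higher, while CD72, CD37 and CD300A were lower. The part of blood cell markers in the HLA levels was not tested.

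CD antigens are a catalogue of surface molecules and not a pathway, and of 15 listed 10 were lower (median log2 ratio of all 15, -1.18). Among all listed genes 45.9% were lower. CD48, a ligand of the SLAM family, was at 0.27 FPKM in the scramble cells and 8.89 FPKM after knockdown, 31.1-fold higher on 9 scramble reads (interval 16.2 to 68.8). CD177, a surface protein of neutrophils, was at 1.57 and 18.1 FPKM, 11.6-fold higher (interval 9.19 to 14.7), with 22.7% of its words in another gene such as the pseudogene CD177P1. The intervals of CD48 and CXCR4 overlap, so these data do not set their order.

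CD99, an adhesion molecule, and CD44, the hyaluronan receptor, were higher by less. CD99 was at 43.6 and 104 FPKM, 2.35-fold higher (interval 2.20 to 2.50), and CD44 at 3.66 and 7.49 FPKM, 2.05-fold higher (interval 1.79 to 2.34). CD300E, an activating receptor of monocytes, had no scramble reads and 39 knockdown reads (0.50 FPKM), at least 13.4-fold higher against the floor of 3 reads (the interval starts at 10.4).

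The CD genes CD72 and CD37, known from B cells, were lower. CD72, an inhibitory co-receptor, was at 3.73 FPKM in the scramble cells and 1.11 FPKM after knockdown, 3.36-fold lower (interval 2.30 to 5.01). CD37, a tetraspanin, was at 0.75 and 0.11 FPKM, 6.77-fold lower on 3 knockdown reads (interval 2.02 to 35.4). Both were under 4 FPKM in both libraries. Outside the rule, the complement receptor CR2 (CD21), also a B cell protein, was at 4.85 and 2.11 FPKM. Members that B cells also make did not share a direction: IL21R and CD40, given above, were lower, while TNFRSF13B, CCR7, IL4R and CD48 were higher. No list of B cell genes was tested. CD300A, an inhibitory receptor of leukocytes, was at 1.26 and 0.39 FPKM, 3.14-fold lower (interval 1.77 to 5.90).

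The lower CD antigens at the highest levels are not specific to leukocytes. CD276 (B7-H3), a checkpoint molecule made by many cell types, was at 72.9 FPKM in the scramble cells and 31.5 FPKM after knockdown, 2.34-fold lower (interval 2.23 to 2.45). CD55, which protects cells from complement, was at 18.9 and 8.78 FPKM, 2.15-fold lower (interval 1.90 to 2.42). CD248 (endosialin), known from pericytes and fibroblasts, was at 4.93 and 2.12 FPKM, 2.32-fold lower (interval 1.87 to 2.89). Beside it, 1 of 7 mesenchyme markers had a row, COL1A1, lower at 110 and 24.4 FPKM, and its part in the level of CD248 was not tested.

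C3, the central complement protein, was lower as well, at 3.31 and 1.03 FPKM, 3.20-fold lower (interval 2.60 to 3.96). C1R, a protease of the classical pathway, was at 6.98 and 2.47 FPKM, and together with CR2 it was 1 of 2 listed among 24 complement genes outside the rule, both lower. C1QTNF6 carries a complement-like name but is a secreted protein of the C1q and TNF-related family, and was higher at 2.19 and 6.92 FPKM, 3.17-fold (interval 2.62 to 3.84). The inflammasome genes NLRP1 (0.33 and 0.10 FPKM, 3.52-fold lower, interval 1.77 to 7.60) and NLRP10 (0.68 and 0.09 FPKM, 7.49-fold lower, interval 2.65 to 29.2) were below 1 FPKM in both libraries. No TLR gene was listed.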

How the data were processed

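Per the labels' protocols, total RNA was extracted with Trizol, 1 ug went into each library, and the sequencer was a BGISEQ-500. The submitters' processing notes name hg19 and Bowtie 0.12.2. How reads were counted, tested and filtered, and whether by strand, is not given in the sources used here. The authors' deposited table gives a level per library, read as FPKM because the values scale with inferred reads per kilobase, a log2 ratio of the 2 levels, and p-values with false discovery rates. Its lowest FPKM is a floor of 0.01. Ranks from the p-values and rates put the number of genes tested at 18489.

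Whole reads were sought that gave both FPKM values (within 2% of the level) and, under a Poisson comparison of the libraries, the deposited p-value (within 0.0002 on the natural log). Such reads were found for 85.9% of the 1926 genes whose p-value was not printed as 0, and for 46 of the 55 members. For the other 9 members (CCL26, IFITM1, C1QTNF6, CD44, CD72, IL16, IL6R, MX2 and STAT5A) reads were estimated from the FPKM, with a length offset of 68 bases. Over both libraries a member had between 11 and 41117 reads (median 141), which sets the width of the intervals. The procedure was tested on data simulated under its own Poisson model, depths and length offset. Such data cannot show whether the authors used that model. Without molecular identifiers reads are not independent molecules, and intervals and floors cover counting error only.

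Log2 ratios used a pseudocount of 0.1 FPKM, which understates ratios at low levels. Shared sequence is how many of the 31-base words in the longest GENCODE 29 transcript also occur in another gene, in percent. Named genes were TFCP2L1, CXCR4, the HLA genes, members at 1 FPKM or more, and the highest and lowest of each role and pathway list. Others, mainly members at low levels, were chosen after their values were seen. Members and lists were chosen with earlier results of these data known, 1 gene of the symbol pattern is left out, and 2 members are counted but not reported by name or drawn singly here. Python 3.11.15, numpy 2.4.6, pandas 2.3.3, scipy 1.17.1 and matplotlib 3.10.9 were used. Alternatives were another pseudocount, the deposited ratios, read ratios, other level limits, a larger fold, counting intervals and leaving out shared sequence.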

Additional observations from a re-analysis of the deposited data

Results flagged for a closer look

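A locus without a gene symbol, outside the comparisons of named genes, reached 9.98 FPKM after knockdown against 3.79 FPKM in the scramble cells. It has 1564 bases, the authors' table describes its protein as an HLA class I antigen, and it was 2.66-fold higher (interval 2.17 to 3.27). It stands out because the symbol rule did not take it and its level was above that of the control library. HLA genes are alike in sequence, and whether its reads also belong to named HLA genes was not tested.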

How the results depend on the processing

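With 1 library per group no replicate could be left out. No paired analysis was possible because each group had 1 library. None of the 55 members changed direction between the 4 measures of the ratio (pseudocounts of 0.1 and 1 FPKM, deposited ratios, read ratios). That is no check of direction, because all 4 measures rest on the same 2 levels. An equal pseudocount in both libraries cannot turn a sign. Of 37 alternative values, 25 stayed within the limits set for them. With a pseudocount of 1 FPKM, 12 members in place of 18 were at least 2-fold higher and 9 in place of 19 at least 2-fold lower. The members' median was then -0.65. CXCR4 had a log2 ratio of 3.73, HLA-DRA of -1.38, HLA-DOA of -1.12 and HLA-DMB of -0.77, which is less than 2-fold lower. Among members that reached 5 FPKM in either library, 11 members were at least 2-fold higher and 4 lower, and the median turned to 1.13, since fewer lower genes reach that level. Past 4-fold 6 were higher and 4 lower, and among the 38 members at 1 FPKM or more 12 higher and 12 lower had a counting interval wholly beyond 2-fold. The median was -1.10 with no filter on levels and -1.17 without members of shared sequence. Depth limits the members below 1 FPKM most, where a library often held few reads or none.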

Other observations

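Further loci without a symbol were described by the authors' table as MHC proteins, and 3 of these 4 were lower in the knockdown library. Those described as an MHC class II antigen were at 3.05 and 0.60 FPKM (1435 bases, 5.21-fold lower, interval 3.13 to 9.16) and at 8.83 and 3.64 FPKM (782 bases, 2.41-fold lower, interval 1.77 to 3.32). The direction is that of HLA-DRA, HLA-DMB and HLA-DOA, and whether they share reads with those genes was not tested. A locus described as an MHC class I chain-related protein was at 2.77 and 0.94 FPKM (2.94-fold lower, interval 1.80 to 5.01).

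The deposited annotation gives an immune response term to 24 genes outside the symbol rule, 12 higher and 12 lower. TGFB1, a secreted regulator of growth and immunity, was at 14.6 and 52.1 FPKM (3.58-fold higher, interval 3.33 to 3.86), and COLEC12, a scavenger receptor, at 0.50 and 10.9 FPKM (21.8-fold higher, interval 15.6 to 31.3). Among the lower genes, IDO1, an enzyme of tryptophan breakdown that interferon induces, was at 7.94 and 2.43 FPKM (3.28-fold lower, interval 2.63 to 4.12), HMOX1, haem oxygenase, at 8.43 and 3.32 FPKM (2.53-fold lower, interval 2.04 to 3.17), and ICAM5, an adhesion molecule, at 4.60 and 1.40 FPKM (3.28-fold lower, interval 2.69 to 4.02). MARCH1 is not among these 24 genes but carries an antigen processing term. This ubiquitin ligase, known to remove HLA class II molecules from the surface, was at 3.92 and 1.72 FPKM. It was 2.28-fold lower (interval 1.93 to 2.69), the same direction as the class II genes. These genes were chosen after their values were seen.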
